A study of Mus musculus with 6 samples.

Results

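The genes described here are the mouse Zfp genes, named Zfp and a number, whose transcripts gave a clear signal in oocytes of wildtype and Brwd1 mutant mice. Of 334 probe sets with 1 such gene symbol, the brightest of each gene was taken, which gave 317 genes. The 150 genes with a mean of 6 or more on the log2 scale over the 6 arrays were kept, and the other 167 were not. They are 150 of 7962 single-symbol genes at that level and of 19938 on the array. The genes were chosen by their mean level, so levels are given only as a description. Just inside the cut-off lay Zfp408 at 6.02, Zfp282 at 6.03 and Zfp438 at 6.05, and just outside it lay Zfp608 at 5.985, Zfp346 at 5.97 and Zfp809 at 5.945. Because the probes of different genes respond differently, these levels do not rank the transcripts by abundance.

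Zfp genes encode proteins that mostly bind DNA through tandem zinc fingers of the Cys2-His2 type. Many belong to the family with a KRAB domain, which recruits the corepressor Trim28 and the histone methyltransferase Setdb1 to retroelements and imprinted regions. KRAB zinc-finger genes multiplied by local duplication and lie in clusters of related copies, whereas many of the older, conserved zinc-finger genes stand alone. Oocytes store such transcripts for the early embryo, where Zfp57 keeps imprints methylated.

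Each sample was a pool of 100 germinal vesicle stage oocytes. There were 3 wildtype pools and 3 from females with a Brwd1 mutation on both alleles, all on a B6/C3H background. All females were 2 to 6 months old and had received 5 IU of equine chorionic gonadotropin, which drives follicle growth, 44 h before collection. The labels do not name the Brwd1 allele, nor tie the pools to separate animals, and p-values then cover only the spread among these pools, part or all of which may be technical. The question was how the Brwd1 mutation alters the oocyte transcriptome, measured on 1 Affymetrix Gene ST array per sample as log2 values relative to the rest of the array. In such pools, a transcript lost from some oocytes and a lower level in each oocyte cannot be told apart.

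Brwd1 read 8.91, 9.08 and 8.98 in the wildtype pools against 4.41, 4.56 and 4.50 in the mutant ones, which bears out the labels. As a guide to background, 1193 probe sets of olfactory and vomeronasal receptors had a 95th percentile of 4.47. The 15 oocyte markers had a median level of 11.46 to 11.53 in the 6 samples. The median was 4.48 to 4.85 for 14 granulosa and cumulus markers, 3.96 to 4.22 for 9 theca and stroma markers and 4.47 to 4.67 for 13 blood, immune and endothelial markers, of which 2, 0 and 3 were at 6 or more. The median differences of the 4 lists, mutant minus wildtype, were 0.060, 0.10, 0.050 and 0.097, with 11 of 15, 10 of 14, 6 of 9 and 12 of 13 genes higher and none past the threshold. Of all single-symbol genes 10655 of 19938 were higher, and of those at a level of 6 or more 3029 of 7962. Single markers ran from -0.23 to 0.25, from -0.57 to 0.49, from -0.040 to 0.27 and from -0.070 to 0.90 in the 4 lists. The part of these markers in the differences below was not tested.

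Among the 150 expressed Zfp genes, 2 passed the threshold and both fell in the mutant: Zfp770 and Zfp560. The threshold was a Benjamini-Hochberg adjusted p of 0.05 in a limma fit over all 23410 probe sets with a gene symbol, of which 0.137% passed, 0.0982% lower. Among single-symbol genes at a level of 6 or more the shares were 0.201% and, lower, 0.113%. At a limma unadjusted p under 0.05, 32 of the 150 were lower in the mutant and 6 higher, or 21.3% and 4.0%. The corresponding shares of all 7962 genes at that level were 14.1% and 6.59%. The split moved with the scaling, to 26 lower and 11 higher after quantile normalization again and to 46 lower and 1 higher after median centring. The median difference of all probe sets moved too, from 0.010 to 0.0028 and to -0.047. Shares of all genes after these scalings were not counted, so 14.1% and 6.59% are no background for these splits.

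Zfp770, a Cys2-His2 zinc-finger gene, was at 9.05, 9.01 and 8.99 in the wildtype pools, while the mutant pools gave 8.31, 8.38 and 8.15. The groups lay far apart, with the wildtype samples within a narrow range. Its mean fell from 9.02 ± 0.031 to 8.28 ± 0.12 (SD, n = 3 per group). The log2 difference was -0.74 (95% confidence interval -0.91 to -0.56; limma, adjusted p = 0.0297), which is 1.67-fold lower.

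Zfp560 read 7.61, 7.78 and 7.66 in the wildtype pools against 7.06, 7.15 and 7.06 in the mutant ones. Each mutant sample was below each wildtype sample. The mean fell from 7.68 ± 0.087 to 7.09 ± 0.052 (SD, n = 3 per group). The log2 difference was -0.59 (95% confidence interval -0.75 to -0.43; limma, adjusted p = 0.0428), which is 1.51-fold lower.

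Both calls lay close to the threshold. Leaving out any 1 of the 6 arrays ended both, with limma adjusted p-values of 0.0553 (without wildtype 3) to 0.156 (without wildtype 2) for Zfp770 and of 0.0717 (without wildtype 3) to 0.198 (without mutant 3) for Zfp560. The differences themselves stayed between -0.79 and -0.67 and between -0.63 and -0.545. Over all alternatives the adjusted p ran from 0.0107 to 0.156 for Zfp770 and from 0.0287 to 0.198 for Zfp560.

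The 250 bases before the start of the pair that passed are shown because both transcripts were lower in the mutant, and because the share of Zfp promoters with a given short motif can be set beside them. Sequences are from the RefSeq promoter table of GRCm38.p6, which held 119 of the 150 genes, with the first listed start taken. They are written 5′ to 3′ along the gene, with matches on either strand in capitals. The motifs searched were GGGCGG, known from Sp1 binding, CCGGAAG, a core bound by factors of the ETS family, CCAAT, bound by the factor NF-Y, TATAAA, found before some start sites, and the palindrome CACGTG, known as an E-box. The Zfp770 window is chr2:114201433-114201682 and the Zfp560 window chr9:20385159-20385408, both on the minus strand.
Zfp770: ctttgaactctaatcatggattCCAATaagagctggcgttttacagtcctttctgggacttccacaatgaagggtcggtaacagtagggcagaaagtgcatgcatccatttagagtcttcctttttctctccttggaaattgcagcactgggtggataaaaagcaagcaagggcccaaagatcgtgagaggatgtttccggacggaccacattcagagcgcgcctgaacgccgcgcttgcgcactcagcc
Zfp560: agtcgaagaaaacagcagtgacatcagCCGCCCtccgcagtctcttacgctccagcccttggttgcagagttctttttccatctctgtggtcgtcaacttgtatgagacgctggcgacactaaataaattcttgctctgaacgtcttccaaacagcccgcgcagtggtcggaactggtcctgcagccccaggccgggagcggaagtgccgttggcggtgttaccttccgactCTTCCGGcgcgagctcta

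The Zfp770 window held 1 match, CCAAT, starting 228 bases before the start, and 11 CG dinucleotides. The Zfp560 window held GGGCGG 223 bases and CCGGAAG 18 bases before the start, both on the opposite strand, and 19 CG dinucleotides. No motif was common to both, and no listed motif overlapped another there. Over the 119 Zfp windows, 20.2% held CCGGAAG, against 15.3% of 6504 windows of genes at a level of 6 or more and 7.05% of all 27025 windows. CCAAT was in 44.5%, 37.7% and 34.5% of these sets, GGGCGG in 44.5%, 61.0% and 32.9%, TATAAA in 4.2%, 5.93% and 13%, and CACGTG in 6.72%, 8.79% and 6.05%. The Zfp windows had a median of 12 CG dinucleotides, against 17 for genes at that level and 6 for all. A match is only a run of letters, not a site known to be bound.

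Below the pair that passed, 8 more Zfp genes belong to the 10 with the largest separated differences downwards, and none passed. Zfp940 read 7.09, 7.06 and 7.06 in the wildtype pools against 6.63, 5.82 and 6.29 in the mutant ones, which differ by -0.82 (SE 0.186; limma, adjusted p = 0.156). Its wildtype samples nearly coincided, while the mutant samples spread widely.

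Zfp593, which takes part in maturation of the large ribosomal subunit, read 7.59, 7.53 and 6.74 in the wildtype pools against 6.54, 6.57 and 6.37 in the mutant ones. Its difference was -0.79 (SE 0.220; limma, adjusted p = 0.209), with wildtype 3 close to the mutant samples. Without wildtype 3 it was -1.07 and passed (limma, adjusted p = 0.0361), against adjusted p-values of up to 0.411 in the other alternatives.

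Zfp982 read 7.09, 7.49 and 7.14 in the wildtype pools against 6.46, 6.68 and 6.35 in the mutant ones, and Zfp939 was at 8.06, 7.69 and 7.85 and at 7.42, 6.88 and 7.18. The groups were separate in both, with differences of -0.74 and -0.71 (limma, adjusted p = 0.122 and 0.152). Zfp759 had a difference of -0.62, Zfp27 of -0.60, Zfp708 of -0.57 and Zfp825 of -0.54 (limma, adjusted p = 0.155 to 0.171). Zfp708 encodes a repressor that binds a family of retroelements. Zfp825 had another probe set, at a level of 4.74, with a difference of 0.060, so its probe sets disagree in direction.

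Only 5 genes were eligible in the upward direction, and none passed. Zfp469, whose human counterpart is mutated in a corneal disease, read 5.95, 6.20 and 6.27 in the wildtype pools against 6.44, 6.69 and 6.79 in the mutant ones. The groups did not overlap, and the difference was 0.50 (SE 0.120; limma, adjusted p = 0.170). The difference was 0.24 for Zfp618, 0.23 for Zfp532, 0.20 for Zfp651 and 0.17 for Zfp628 (limma, adjusted p = 0.276 to 0.302). The highest difference of all, 0.54 for Zfp979, came from wildtype samples at 6.39, 5.68 and 7.37 that spanned the mutant samples at 6.95, 7.11 and 6.99.

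**Figure D1:**
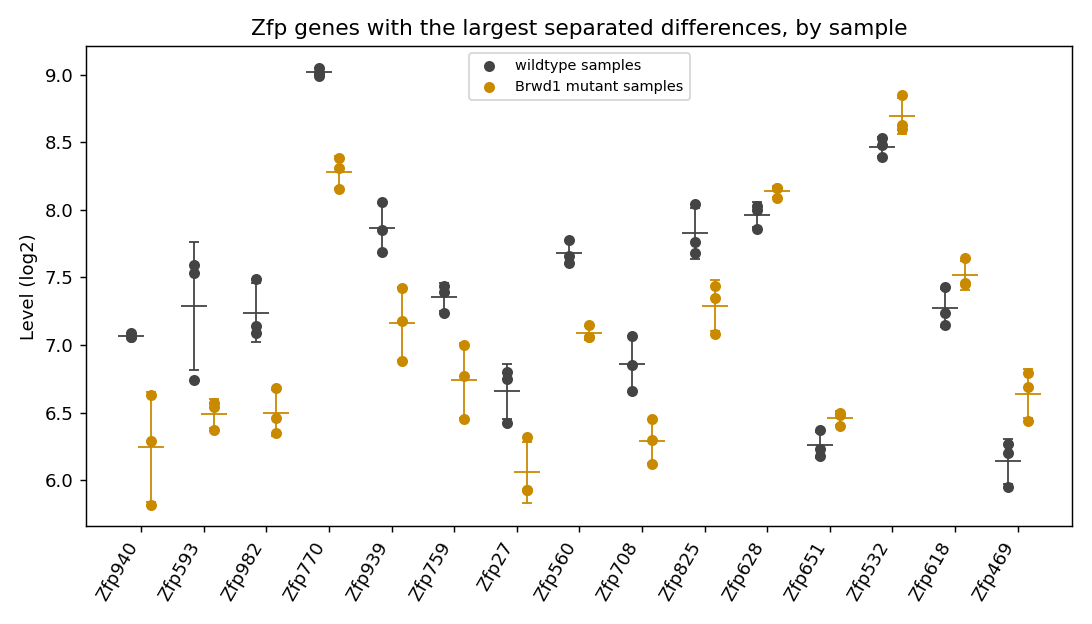
Level (log2, y axis) of the 10 Zfp genes with the largest separated lower values and the 5 eligible higher ones (x axis, ordered by difference) in 3 wildtype (grey) and 3 Brwd1 mutant (orange) samples; dashes are group means and bars SDs. Zfp770 drops from about 9.02 to 8.28, whereas the higher genes at the right, other than Zfp469, move by 0.17 to 0.24.

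Over the whole set the shift was small and downwards. Of the 150 genes, 104 had a lower mean in the mutant and 46 a higher one, and the median difference was -0.078 on the log2 scale. Over all 23410 probe sets it was 0.010, and over the 7812 other genes at a level of 6 or more it was -0.043, with 61.1% lower. The groups did not overlap for 34 genes that were lower and 7 that were higher in the mutant, or 22.7% and 4.67%. Among all genes at that level 17.3% were separate and lower and 8.29% separate and higher. A difference of at least 0.5 in size was found in 16 Zfp genes, 15 of them lower, which is 10.7%, against 2.83% of all genes at that level, with 1.77% lower. By level, the share was 15.9% against 5.35% of the other genes at 6 to 7 and 12.5% against 3.04% at 7 to 8. At 8 to 9 this share was 3.45% against 2.03%, and at 9 or more it was 0% against 0.336%. The median SE of the difference was larger for Zfp genes than for the others below a level of 8, at 0.13 against 0.10 and 0.10 against 0.096, and smaller above it, at 0.075 against 0.081 and 0.060 against 0.064. Without mutant 1 the median was -0.12. Median centring moved the median of the Zfp genes to -0.135 and that of all probe sets to -0.047, with 76.7% of the Zfp genes lower. Quantile normalization again moved the median of the Zfp genes the other way, to -0.048 with 61.3% lower, and cyclic loess to -0.064 with 62.7% lower. The medians of the other genes at a level of 6 or more moved as well. The Zfp median minus theirs was -0.035 on the deposited values and the same with median centring. It was -0.043 with quantile normalization and -0.048 with cyclic loess. Against those genes the shift was therefore not smaller under any of these scalings.

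The difference varied with level. The 63 Zfp genes at 6 to 7 had a median of -0.087, and the 1981 other genes in that range had -0.020. At 7 to 8 the medians were -0.12 for 40 Zfp genes and -0.063 for 1975 others. At 8 to 9 they were -0.033 for 29 and -0.057 for 1770, and at 9 or more -0.033 for 18 and -0.027 for 2086. So the Zfp median was the lower of the pair below 8, the higher at 8 to 9, and close to the others above 9. Replicate spread fell with level, from a median wildtype SD of 0.19 at 6 to 7 to 0.058 at 9 or more. The 167 Zfp genes under 6 had a median of -0.010, with 88 lower and 79 higher, and ran from -1.26 to 0.51. At a limma unadjusted p under 0.05, 19 of the 167 were lower and 8 higher, or 11.4% and 4.79%. Among all single-symbol genes the shares were 7.33% and 7.53%, but these include the genes at 6 or more, with 14.1% and 6.59%. Genes under 6 alone were therefore lower less often than 7.33% and higher more often than 7.53%. A lower mean was found in 45.5% of all single-symbol genes and in 61.3% of those at 6 or more. None of the 167 passed the threshold.

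**Figure D2:**
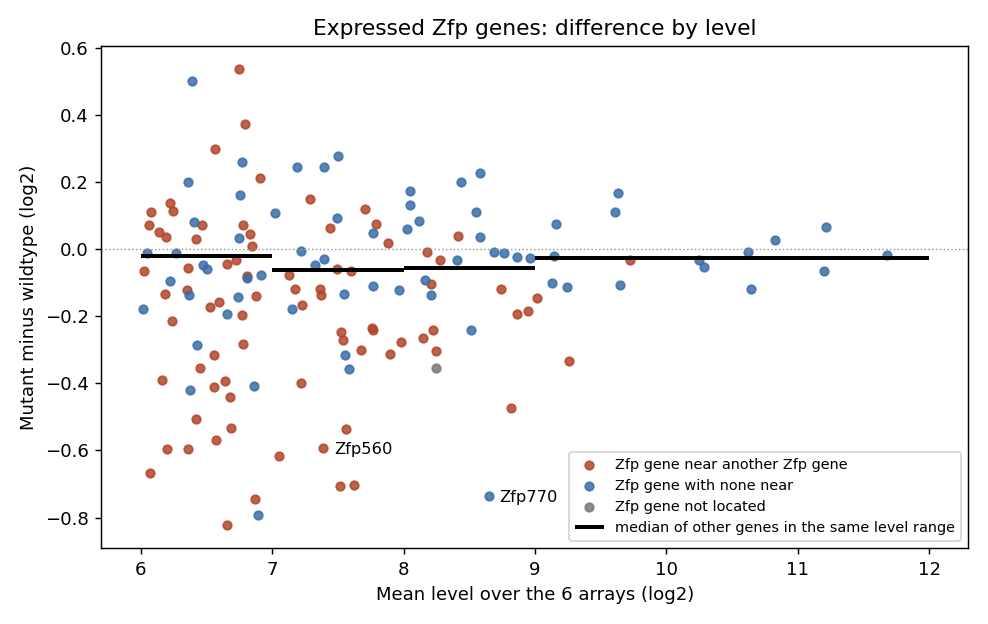
Difference, mutant minus wildtype (log2, y axis), of each of the 150 Zfp genes against its mean level over 6 arrays (log2, x axis), coloured by whether another Zfp gene lies within 3 genes; black lines are the medians of the other genes in each level range. Most points below -0.3 are genes near another Zfp gene at levels under 8, and Zfp770 lies alone at 8.65.

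The 5 brightest Zfp genes differed by at most 0.12 in size, and none passed. Zfp57, which with Zfp445 binds methylated imprinting control regions, read 11.69, 11.69 and 11.68 in the wildtype pools against 11.64, 11.70 and 11.67 in the mutant ones. Its difference was -0.017 (95% confidence interval -0.14 to 0.11; limma, adjusted p = 0.905), and the groups overlapped. The difference was 0.067 for Zfp296, a factor of germ cells and pluripotent cells, -0.067 for Zfp706, which acts in the exit from pluripotency, 0.027 for Zfp592 and -0.12 for Zfp957 (limma, adjusted p = 0.388 to 0.866).

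Among repressors of imprinted genes and retroelements, 8 of 9 listed genes were measured and 5 were expressed Zfp genes. None of the 5 passed, all were lower, and the list median was -0.080. Among all genes at a level of 6 or more 61.3% were lower. That share is the background for the signs in the role lists that follow as well. At a limma unadjusted p under 0.05, Zfp708 was the 1 of the 5, beside 14.1% of all genes at a level of 6 or more that were lower, so the count is near what that share gives. The difference of Zfp445 was -0.080, and that of Zfp568, which silences a placental transcript of Igf2, was -0.077. Zfp961 had a difference of -0.30 that rested on wildtype 2, at 9.0 against 8.29 and 7.91 in the other wildtype samples and 7.99 to 8.23 in the mutant samples. Zfp809, which recognises the primer binding site of murine leukaemia virus and lay just under the cut-off, read 6.13, 6.11 and 6.13 in the wildtype pools against 5.85, 5.70 and 5.75 in the mutant ones. That difference of -0.36 did not pass (limma, adjusted p = 0.122).

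Of 14 listed factors of pluripotency and early development, 8 were expressed Zfp genes, 5 higher and 3 lower, with a median of 0.070. None passed, and at a limma unadjusted p under 0.05 there were 0 of the 8, beside 20.7% of all genes at a level of 6 or more in either direction. Besides Zfp296 and Zfp706, the differences were 0.13 for Zfp148, 0.073 for Zfp217, a partner of corepressor complexes, 0.24 for Zfp423, a partner of Ebf factors, and 0.16 for Zfp703. They were -0.033 for Zfp516 and -0.097 for Zfp335, needed by neural progenitors.

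Of 10 listed RNA, ribosome and spindle proteins, 6 were expressed Zfp genes, 3 higher and 3 lower, with a median of -0.0050. None passed, and at a limma unadjusted p under 0.05 Zfp593 was the 1 of the 6, or 16.7%, near the 14.1% lower among all genes at that level. Zfp207, which helps load Bub3 onto kinetochores, read 9.73, 9.72 and 9.65 in the wildtype pools against 9.63, 9.59 and 9.56 in the mutant ones, separate groups with a difference of only -0.11 (limma, adjusted p = 0.427). The difference was 0.037 for Zfp598, a ubiquitin ligase that marks collided ribosomes, 0.083 for Zfp638, 0.093 for the RNA-binding protein gene Zfp106 and -0.047 for the splicing factor gene Zfp830.

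Of 7 listed ubiquitin, SUMO and chromatin partners, 5 were expressed Zfp genes, 4 higher and 1 lower, with a median of 0.11 and none past the threshold. Zfp532 and its partners in a chromatin-reader complex, Zfp592 and Zfp687, had differences of 0.23, 0.027 and -0.023. The SUMO ligase gene Zfp451 and Zfp410, which activates Chd4, had differences of 0.11 each.

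The cofactors through which KRAB zinc-finger proteins silence chromatin were evenly split by sign. Of 36 listed genes 34 were measured, 17 higher and 17 lower, with a median of -0.010, and none passed. Among all genes at a level of 6 or more 61.3% were lower, with a median of -0.043. The groups were separate and lower for 8 of the 34 and separate and higher for 3, or 23.5% and 8.82%. Among all genes at a level of 6 or more these shares were 17.3% and 8.29%. At a limma unadjusted p under 0.05 there were 4 higher and 4 lower, or 11.8% each way. Of the 34 genes, 32 were at a level of 6 or more, where 6.59% of all genes were higher and 14.1% lower. Mta2, among the 4 higher, was below that level. With so few genes, neither share can be told apart from that background. Over all probe sets the shares were 7.30% and 7.40%. The positive differences were 0.21 for each of the DNA methyltransferases Dnmt3a and Dnmt3b, 0.22 for Tasor of the HUSH complex and 0.46 for Mta2, whose level of 4.435 was near background. The negative differences were -0.28 for Gatad2a, -0.23 for Smarcad1, -0.28 for Dnmt3l, the cofactor of Dnmt3a in oocytes, and -0.63 for Atf7ip2, a relative of the Setdb1 cofactor Atf7ip (limma, adjusted p = 0.152 to 0.328 for all 8).

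In these samples the differences were larger for Zfp genes that lie near other Zfp genes than for those with none near. A gene was counted as near when another Zfp gene was among the 3 protein-coding genes on either side in the RefSeq table of GRCm38.p6. Genes without such a neighbour are called alone here. Zinc-finger genes with other kinds of name were not counted, so a gene called alone may still lie among them. This division was made after the values were seen and was given no test. Of the 149 genes that could be located, 81 were near another and 68 were not. The 81 had a median difference of -0.15, with 60 lower and 21 higher, and the 68 a median of -0.025, with 43 lower and 25 higher. The sign of the second median turned, to 0.0074, after quantile normalization again, and it was -0.053 without wildtype 1 and -0.0083 without wildtype 3. On the deposited values the other genes at a level of 6 or more had a median of -0.043. That median also moved with the scaling, so the turn does not show a change particular to the 68.

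At a limma unadjusted p under 0.05, 25 of the 81 were lower and 1 was higher, or 30.9% and 1.23%, against 14.1% and 6.59% of all genes at a level of 6 or more. Of the 68, 6 were lower and 5 higher, or 8.82% and 7.35%, below the share of all genes in the first and near it in the second. The groups were separate and lower for 24 of the 81, separate and higher for 0, and for 9 and 7 of the 68. That is 29.6% and 0% of the 81 and 13.2% and 10.3% of the 68, beside 17.3% and 8.29% of all genes at that level. Zfp560 is 1 of the 81 and Zfp770 1 of the 68. The shares of the 68 moved with the scaling: 63.2% were lower on the deposited values, 51.5% after cyclic loess and 48.5% after quantile normalization again, against 74.1%, 71.6% and 71.6% of the 81.

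Genes near others were dimmer, with a median level of 6.88 against 7.77, and the medians were also compared at matched levels. At 7 to 8 the medians were -0.24 for 25 such genes and -0.030 for 15 that stood alone, and at 8 to 9 they were -0.18 for 11 and -0.010 for 17. At 6 to 7 they were -0.13 for 42 and -0.077 for 21, but there 27 of the 42 and 15 of the 21 were lower, a larger share of those alone. Among Zfp genes below the cut-off, 111 near others had a median of -0.023 and 55 alone had 0.057. The 433 other genes at a level of 6 or more that lie within 3 genes of a Zfp gene had a median of -0.060, with 16.2% lower and 5.54% higher at a limma unadjusted p under 0.05.

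Sample by sample, the genotypes were separate for genes near others and, more narrowly, for the other genes at a level of 6 or more. For genes near others the median deviation from each gene's mean over the 6 arrays was 0.062, 0.12 and 0.082 in wildtype 1, 2 and 3 and -0.037, -0.072 and -0.098 in mutant 1, 2 and 3. For genes that stood alone the deviations were -0.020, 0.0050 and 0.015 in wildtype pools, against 0.017, -0.016 and -0.017 in mutant pools, and the groups overlapped. The other genes at a level of 6 or more had 0.015, 0.020 and 0.018 in wildtype pools and 0.0067, -0.038 and -0.022 in mutant pools, which did not overlap either.

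**Figure D3:**
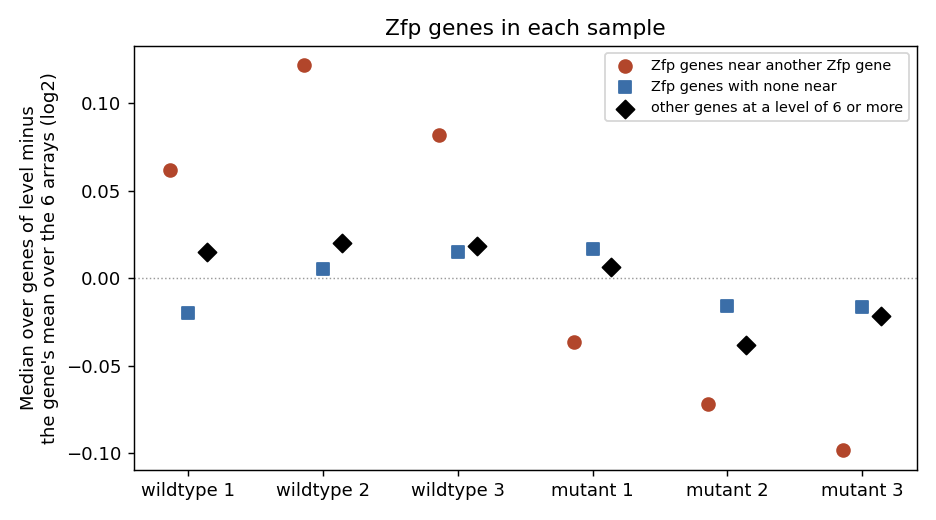
Median over genes of the level minus the gene's own mean over 6 arrays (log2, y axis) in each sample (x axis) for 81 Zfp genes near another Zfp gene (circles), 68 with none near (squares) and 7812 other genes at a level of 6 or more (diamonds). The circles lie between 0.062 and 0.12 in the wildtype and between -0.098 and -0.037 in the mutant samples, while the squares of both groups stay within 0.020 of 0.

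Runs of Zfp genes, each within 3 genes of the next, held at least 4 expressed members in 6 places. The run of Zfp109, Zfp111, Zfp108, Zfp94, Zfp61, Zfp235 and Zfp93 had 7 of 7 members lower, between -0.67 and -0.057, with a median of -0.39. In it, Zfp108 read 9.06, 9.09 and 9.02 in the wildtype pools against 8.63, 8.68 and 8.44 in the mutant ones, a tight separation with a difference of -0.47 (limma, adjusted p = 0.117). The run that holds Zfp942, Zfp946 and Zfp944 had 5 of 6 lower, between -0.53 and 0.11, with a median of -0.30. Zfp946 there had the smallest p-value of all expressed Zfp genes that did not pass, reading 6.65, 6.78 and 6.58 in the wildtype pools against 6.15, 6.22 and 6.12 in the mutant ones (limma, adjusted p = 0.0814).

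The run with Zfp777 had 5 of 5 lower, between -0.44 and -0.067. The run with Zfp759, Zfp708 and Zfp58 had 4 of 6 lower, between -0.62 and 0.15, and Zfp58, reading 9.47, 9.45 and 9.36 in the wildtype pools against 9.14, 9.07 and 9.07 in the mutant ones, was separate with a difference of -0.33 (limma, adjusted p = 0.122). The run with Zfp524 had 3 of 4 lower, between -0.27 and 0.21. In the run with Zfp940 and Zfp27, 5 of 7 were lower, but the 5 members other than that pair lay between -0.12 and 0.070, so neighbours in 1 run did not all move alike. Zfp108, Zfp946, Zfp58 and the run members were singled out after their values were seen. Related neighbours can share sequence, and probe sets may then read more than 1 of them, so single members of a run are uncertain.

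**Figure D4:**
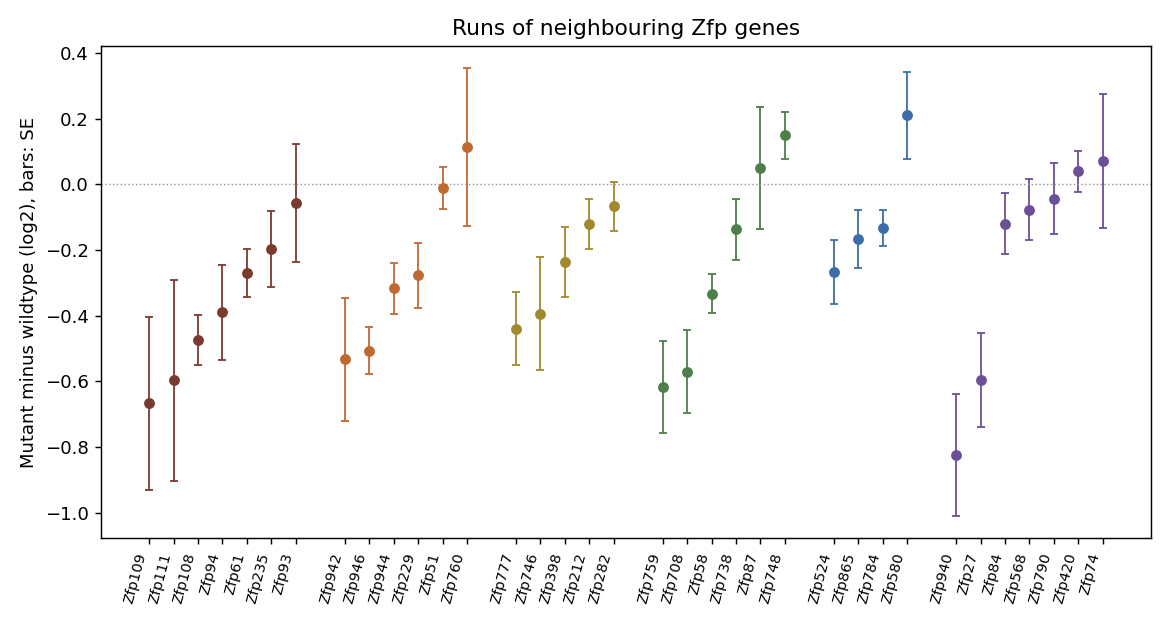
Difference, mutant minus wildtype (log2, y axis; bars are SEs of the limma fit), of the expressed Zfp genes in 6 runs of neighbours (x axis; colours mark runs, and genes are ordered by difference, not by position). All members of the runs with Zfp109 and Zfp777 are below 0, and in the run at the right Zfp940 and Zfp27 stand apart from 5 members near 0.

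For 9 of the 150 genes the array held 11 further probe sets, and 8 of these had the sign of the brightest one. Since 61.1% of the other genes at a level of 6 or more were lower, many would share a sign in any case, and 1 of the 8, that of Zfp60, lay at a level of 2.88, under the background guide. Both further probe sets of Zfp640 were lower too, with -0.52 and -0.49 beside -0.35, and that of Zfp141 gave -0.43 beside -0.40. The 3 that disagreed belonged to Zfp825, to Zfp407, with 0.013 beside -0.033, and to Zfp319, with 0.39 beside -0.13. Expressed genes of the related Zbtb, Zscan and Zkscan families, which also carry Cys2-His2 fingers, numbered 31 at a level of 6 or more and had a median of -0.050, with 19 lower, 11 higher, 1 equal and none past the threshold. At a limma unadjusted p under 0.05, 4 of them were lower and 2 higher, or 12.9% and 6.45%, near the 14.1% and 6.59% of all genes at that level.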

How the data were processed

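The deposited values are log2 values, 1 per probe set and array, made by the authors with Affymetrix Expression Console 1.1 and RMA, per the submitters' processing notes. RMA corrects background, forces probe intensities to a common distribution across arrays and then summarises probes. A change in total RNA therefore cannot be seen, and dim differences are compressed. The summarised values need not share a distribution: median centring moved the median difference of all probe sets from 0.010 to -0.047. RNA, 1 ng per sample, was amplified before labelling, per the labels' protocols. Of 35556 probe sets, 21789 had 1 gene symbol, 1621 several and 12146 none listed. Of the 150 genes, 149 were found by identifier in the RefSeq table of GRCm38.p6. No source used here gives the genome build behind the probe annotation.

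Mutant minus wildtype was fitted with limma 3.58.1 in R 4.3.3 (lmFit, eBayes, two-sided) over 6 arrays without covariates, on all 23410 probe sets with a symbol, and p-values were adjusted by Benjamini-Hochberg over all of them. The procedure was tested on simulated data, where recovery was required only for differences far larger than those of the Zfp genes. Smaller differences, near the largest of the Zfp genes, were simulated too, but their recovery was not required and is not reported here. How often differences of the size seen here are found is therefore not stated. The number of arrays limits the precision. The genes and lists were chosen with earlier results of these data known, so no list was given a test. Genes were named by rule: those past the threshold, up to 10 per direction with the largest separated difference at an unadjusted p under 0.05, the 5 brightest, those at the edge of the cut-off, members of 4 role lists, and listed cofactors at an unadjusted p under 0.05. Alternatives were a replicate block, a filter on dim probe sets, other normalizations, other eBayes settings, array weights, all probe sets, the mean of a gene's probe sets, cut-offs of 5 and 7, and leaving out each array.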

Additional observations from a re-analysis of the deposited data

How the results depend on the processing

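The count of 2 Zfp genes past the threshold was 1 after cyclic loess and after quantile normalization again, and 0 when all 35556 probe sets were tested, when repeated probe sets were counted once (an alternative chosen after seeing the data), or with the replicate number as a block. It was 0 to 1 without 1 array, and the 1 without wildtype 3 was Zfp593, not Zfp770 or Zfp560. It stayed at 2 with array weights, trend and robust settings, the dim filter, median centring, the mean of a gene's probe sets and cut-offs of 5 and 7. The 32 probe sets past the threshold overall became 1 with all probe sets, with repeats counted once and with the replicate block, 76 with trend and robust settings, and 1 to 18 without 1 array. Where limma gave 0 Zfp genes, between 27 and 37 were lower and 2 to 8 higher at an unadjusted p under 0.05. The shares of all genes in those fits were not counted, so these numbers have no background beside them. Deviations of same-numbered arrays correlated at -0.0015, -0.031 and 0.037, and those of differently numbered arrays at -0.048 to 0.057. With 3 arrays per group, such values cannot show whether same-numbered samples were handled together. The cause of the changes in the counts was not tested.

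The median difference of the Zfp genes was -0.135 after median centring, -0.048 after quantile normalization again, -0.064 after cyclic loess and -0.12 to -0.067 without 1 array. For genes near other Zfp genes it was -0.20 after median centring and -0.185 to -0.12 without 1 array. For those alone it was -0.082 after median centring, 0.0074, the opposite sign, after quantile normalization again, and -0.053 to -0.0083 without 1 array. The division into near and alone, with its alternatives, was chosen after seeing the data. Of 48 named genes, no called difference changed sign, and 7 Zfp genes with values near 0 changed sign in at least 1 alternative. Arrays with signal near background limit what can be said of the 167 dimmer Zfp genes.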
